A study of Mus musculus with 9 samples.

Results

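The genes described here build the brush border, the carpet of microvilli on the apical face of absorptive gut cells. They are 10 named genes, Vil1, Cdhr2, Cdhr5, Ush1c, Myo7b, Myo1a, Espn, Pls1, Ezr and Eps8, listed by name for their part in the brush border, and each matched 1 of the 56398 features in the deposited tables. RNA sequencing measured them in 9 samples from BALB/c mice. The AC group held 3 tumours from mice injected with CT26 cells and given Astragalus and Curcuma phaeocaulis Valeton in a 2:1 ratio, at 6 g/kg a day. The model group held 3 tumours from mice injected with CT26 cells and given saline daily, for which the labels also give 6 g/kg. Healthy colon, called colon below, makes up the sham group, with 3 samples. The strain was shared by all mice, the labels give neither age nor injection site, and every tumour comes from CT26, a single mouse colon carcinoma line.

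Microvilli are finger-like membrane protrusions held up by parallel bundles of actin filaments. Villin, plastin 1, espin and EPS8 bundle those filaments, ezrin and the motor myosin 1A tie the bundle to the membrane around it, and the cadherins CDHR2 and CDHR5 join the tips of neighbouring microvilli. The cadherins are held at the tips by the scaffold harmonin, the product of Ush1c, and the motor myosin 7B. In the colon most of these genes are high in differentiated absorptive cells near the luminal surface, and villin is a classical marker of gut epithelium.

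The libraries differed in the cell type markers they carried. Total counts ran from 15690038 to 23476056. Epcam, the adhesion protein present on nearly all gut epithelial cells, had 1289 counts in AC tumour 3 and 957 in model tumour 1, 5 to 20 counts in each of the remaining 4 tumours, and between 35655 and 39675 counts in colon. Colon 1 carried more B cell transcripts and less smooth muscle than colon 2 and colon 3, with 1034 CPM over 6 B cell markers against 125 and 64.5, and 130 CPM over 6 smooth muscle markers against 1416 and 1547. CPM are counts scaled to a common library total, here scaled by TMM (a factor that corrects for differences in RNA composition) over all 9 libraries. In whole tissue, fewer cells of a type and less RNA per cell cannot be told apart. No label states that replicates were separate animals. The p-values therefore measure no more than the spread among these samples, and that spread may be technical.

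All 10 brush border genes fell in tumours of both groups against colon, but by very different amounts. Transcripts of 8 of them nearly vanished, to means of 0.478% to 1.8% of the colon CPM in AC tumours and 0.213% to 0.842% in model tumours. Ezr kept 32.2% of its colon CPM in AC tumours and 30.8% in model tumours, and Eps8 kept 47.8% and 56.4%. The count of 10 of 10 lower has to be read against a large background, since edgeR (adjusted p under 0.05) called 32.7% of 17832 genes lower and 35.5% higher in AC tumours, 68.2% in all. It called 32.9% of 18228 genes lower and 36.8% higher in model tumours, 69.7% in all. The TMM-scaled CPM of tumours and colon did not overlap for any of the 10, as for 75.7% of genes in AC tumours and 76.9% in model tumours. Over the 10 genes the median log2 fold change was -6.62 in AC tumours and -7.62 in model tumours, against medians over all genes tested of 0.1 for AC tumours and 0.12 for model tumours.

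**Figure D1:**
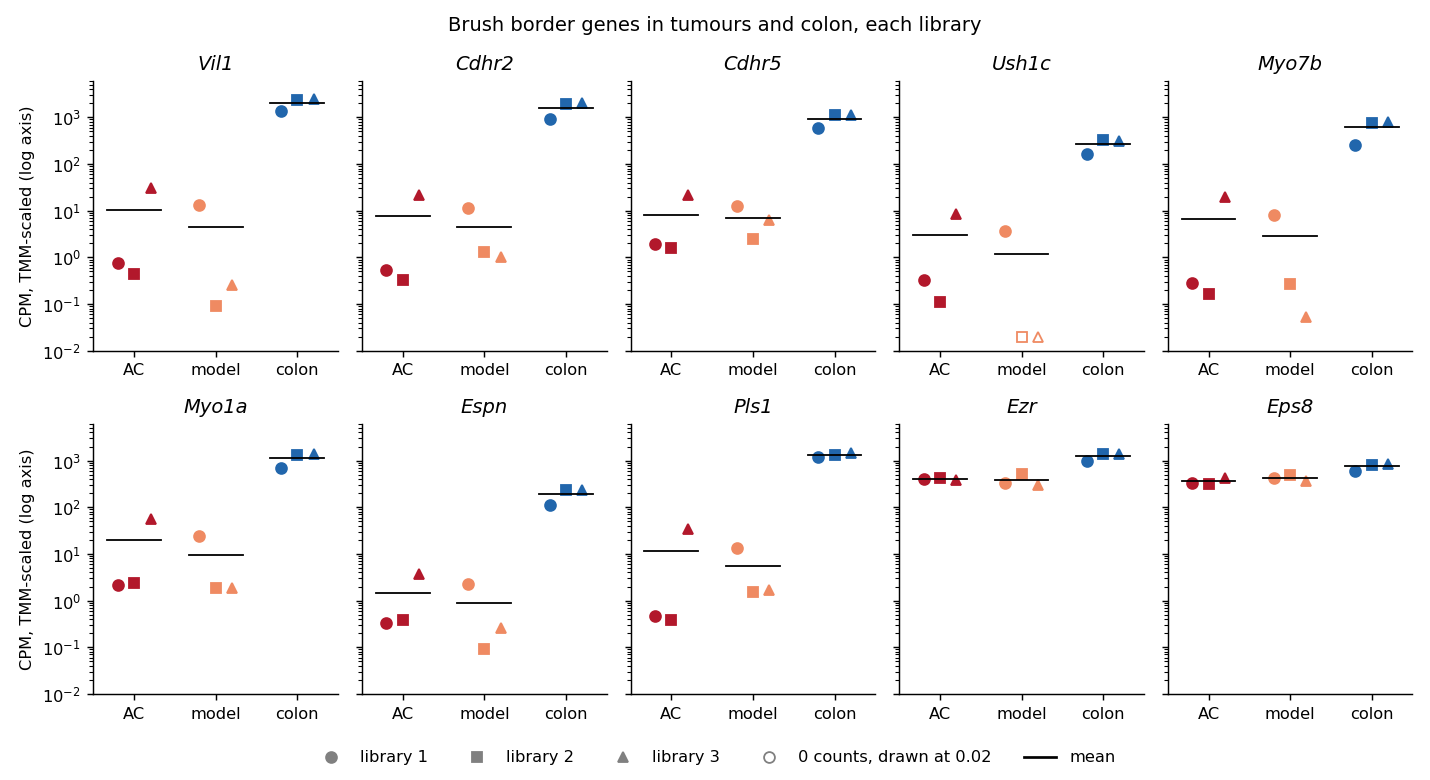
TMM-scaled CPM of each brush border gene on a log axis in AC tumours, model tumours and colon (3 libraries each, marked by shape), with the group mean as a line. AC tumour 3 and model tumour 1 stood above the other tumours for 8 genes, while they did not stand apart for Ezr, at 392 to 413 CPM in AC tumours and 298 to 523 CPM in model tumours, or for Eps8, at 319 to 425 CPM and 359 to 497 CPM.

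RefSeq promoters, 250 bases before to 50 after the start of transcription on GRCm38.p6, were at hand for 8 of the 10 genes, with 3 for Espn, and not for Eps8 and Myo7b. Those of Vil1, the most abundant of the 10 in colon by FPKM, of the cadherin pair and of Ezr are shown with CG in capitals. The count of CG, a C followed by a G, whose cytosine DNA methylation acts on, set Ezr apart from the other promoters at hand. Ezr itself fell, to 32.2% of its colon CPM in AC tumours and 30.8% in model tumours. Eps8, which kept more (47.8% and 56.4%), could not be compared. Vil1 lies on the plus strand at chr1:74409134-74409433, Cdhr2 on the plus strand at chr13:54701213-54701512, Cdhr5 on the minus strand at chr7:141276737-141277036 and Ezr on the minus strand at chr17:6782731-6783030, each written 5′ to 3′ along its gene.
Vil1: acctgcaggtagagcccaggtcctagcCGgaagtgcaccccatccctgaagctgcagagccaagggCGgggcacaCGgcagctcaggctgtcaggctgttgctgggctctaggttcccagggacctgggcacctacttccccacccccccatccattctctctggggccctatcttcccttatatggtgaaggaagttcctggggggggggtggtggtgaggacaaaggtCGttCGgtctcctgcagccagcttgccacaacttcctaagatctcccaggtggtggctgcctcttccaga
Cdhr2: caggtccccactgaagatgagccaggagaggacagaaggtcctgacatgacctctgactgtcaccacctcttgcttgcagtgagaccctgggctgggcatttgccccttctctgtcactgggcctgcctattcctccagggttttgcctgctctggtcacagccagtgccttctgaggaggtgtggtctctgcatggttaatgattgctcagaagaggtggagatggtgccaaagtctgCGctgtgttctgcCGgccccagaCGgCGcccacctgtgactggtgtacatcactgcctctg
Cdhr5: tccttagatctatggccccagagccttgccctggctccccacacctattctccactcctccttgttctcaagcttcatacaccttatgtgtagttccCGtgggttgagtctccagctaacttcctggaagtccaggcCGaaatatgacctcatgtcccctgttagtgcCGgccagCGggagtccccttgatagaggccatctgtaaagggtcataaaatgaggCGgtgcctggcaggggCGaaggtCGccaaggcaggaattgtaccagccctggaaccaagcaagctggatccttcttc
Ezr: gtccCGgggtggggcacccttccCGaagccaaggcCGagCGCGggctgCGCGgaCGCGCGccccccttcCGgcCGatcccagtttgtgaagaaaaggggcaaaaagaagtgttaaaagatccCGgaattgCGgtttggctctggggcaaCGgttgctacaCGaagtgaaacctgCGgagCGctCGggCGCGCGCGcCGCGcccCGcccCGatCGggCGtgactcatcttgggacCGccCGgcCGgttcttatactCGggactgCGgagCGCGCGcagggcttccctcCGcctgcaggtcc
The Ezr promoter held 38 CG, a count reached by 4.95% of 32851 promoters of the same length. The 9 promoters of the other 7 genes held 2 to 16, with 5 in Vil1, 4 in Cdhr2 and 7 in Cdhr5, where the median of all promoters was 7. This count was chosen after the values were seen and is a description of the sequence alone, as methylation was not measured. A search of both strands for CATAAA (a core of CDX2 sites) found it in 2 of the 10 promoters, that of Cdhr5 and 1 of those of Espn, against 11.85% of all promoters. GTTAAT (a core of HNF1 sites) was found in 1 of the 10, that of Cdhr2, against 7.1%, and CAAAGTNCA (a form of HNF4 sites) in 0, against 1.41%.

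Among the actin bundlers, Vil1 encodes villin, which bundles, caps and severs actin filaments (ENSMUSG00000026175, chromosome 1, 74409376 to 74435559, GENCODE M21 on GRCm38 as for the genes below). It had 0.762, 0.443 and 30.3 CPM in AC tumours, 12.9, 0.0911 and 0.26 CPM in model tumours, and 1342, 2403 and 2487 CPM in colon. By FPKM, a scale per gene length, it was the most abundant of the 10 in each colon library, and model tumour 2 held only 2 of its reads. The log2 fold change against colon was -7.57 in AC tumours (SE 1.89, adjusted p 0.0119) and -8.78 in model tumours (SE 1.96, adjusted p 0.00661). Of its exons, 49 bases (1.38%) overlap Usp37 on the other strand, whose reads cannot be told apart there because the strand setting of the counting is not given.

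Pls1 encodes plastin 1, also called fimbrin, the tight bundler of the microvillus core (ENSMUSG00000049493, chromosome 9, 95752642 to 95845311). It had 0.476, 0.388 and 33.5 CPM in AC tumours, 13.5, 1.55 and 1.71 CPM in model tumours, and 1180, 1343 and 1418 CPM in colon. It varied least among the colon libraries of the 10 genes, and again AC tumour 3 and model tumour 1 were the high tumours. It fell by 6.79 on the log2 scale in AC tumours (SE 1.93, adjusted p 0.0196) and fell by 7.81 in model tumours (SE 1.11, adjusted p 0.000936).

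Espn encodes espin, a bundler known for the length it gives to actin protrusions such as the stereocilia of the ear (ENSMUSG00000028943, chromosome 4, 152120331 to 152152371). Its level was 0.333, 0.388 and 3.73 CPM in AC tumours, 2.27, 0.0911 and 0.26 CPM in model tumours, and 114, 234 and 230 CPM in colon. Every tumour lay far below the lowest colon library, and the highest tumours were again AC tumour 3 and model tumour 1. The log2 fold change was -6.98 in AC tumours (SE 1.05, adjusted p 0.00151) and -7.63 in model tumours (SE 1.05, adjusted p 0.000818).

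Eps8 encodes a protein of microvillus tips that caps and bundles actin and also acts in signalling from growth factor receptors to Rac (ENSMUSG00000015766, chromosome 6, 137477245 to 137654876). It stood at 332, 319 and 425 CPM in AC tumours, 413, 497 and 359 CPM in model tumours, and 595, 802 and 851 CPM in colon. The lowest colon library lay above the highest tumour, yet the gap was small. The log2 fold change was -1.05 in AC tumours (SE 0.201, adjusted p 0.00373) and -0.8 in model tumours (SE 0.195, adjusted p 0.00944), and without scaling factors it was -0.4 in AC tumours (adjusted p 0.086) and -0.19 in model tumours (adjusted p 0.331) and no longer called. The authors' FPKM, which divide counts by gene length and library total, overlapped between the groups at 29.7 to 40.7 in AC tumours, 33.9 to 45.3 in model tumours and 38.5 to 48.7 in colon. Leaving out the scaling factors moved the median of all genes tested to 0.75 in AC tumours and 0.72 in model tumours. The share of calls that were higher then went to 68.2%, against 52.1% with TMM, in AC tumours, and to 67.3%, against 52.8%, in model tumours.

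Among the links between actin and membrane, Myo1a encodes the class I myosin that bridges the core bundle to the membrane along the length of the microvillus (ENSMUSG00000025401, chromosome 10, 127705170 to 127720940). It had 2.19, 2.38 and 56.1 CPM in AC tumours, 24.7, 1.82 and 1.87 CPM in model tumours, and 685, 1304 and 1389 CPM in colon. By FPKM it was the highest of the 8 lost genes in AC tumour 3 (17.9) and in model tumour 1 (7.62). The log2 fold change was -5.74 in AC tumours (SE 1.52, adjusted p 0.0149) and -6.81 in model tumours (SE 1.31, adjusted p 0.00346).

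Ezr encodes ezrin, which binds membrane proteins at one end and actin at the other and is needed for the order of gut microvilli in mice (ENSMUSG00000052397, chromosome 17, 6738041 to 6782784). It measured 403, 413 and 392 CPM in AC tumours, 335, 523 and 298 CPM in model tumours, and 978, 1368 and 1403 CPM in colon. All tumours lay below all colon libraries, and the 3 AC tumours, nearly equal, lay within the range of the model tumours. Ezr fell by 1.62 on the log2 scale in AC tumours (SE 0.166, adjusted p 0.000294) and fell by 1.68 in model tumours (SE 0.262, adjusted p 0.0014), and it was also called without scaling factors, at -0.97 in AC tumours and -1.07 in model tumours.

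All 4 genes of the complex that joins microvillus tips were among the 8 lost. Cdhr2, a cadherin that binds CDHR5 on the next microvillus (ENSMUSG00000034918, chromosome 13, 54701461 to 54736662), had 0.524, 0.333 and 22 CPM in AC tumours, 11.2, 1.32 and 1.04 CPM in model tumours, and 903, 1891 and 1982 CPM in colon. Its partner Cdhr5 (ENSMUSG00000025497, chromosome 7, 141269083 to 141276786) had 1.9, 1.61 and 21.2 CPM in AC tumours, 12.5, 2.51 and 6.28 CPM in model tumours, and 597, 1104 and 1117 CPM in colon. Cdhr5 was thus the better kept of the cadherins in the 4 tumours with little Epcam, where it had 0.675 to 2.68 FPKM and Cdhr2 had 0.0926 to 0.36 FPKM. Cdhr2 fell by 7.65 on the log2 scale in AC tumours (SE 1.89, adjusted p 0.0113) and fell by 8.37 in model tumours (SE 1.24, adjusted p 0.00114). For Cdhr5 the log2 fold change was -6.78 in AC tumours (SE 1.28, adjusted p 0.00376) and -7 in model tumours (SE 0.729, adjusted p 0.000262).

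Ush1c, the scaffold that ties the cadherin tails to the motor (ENSMUSG00000030838, chromosome 7, 46195350 to 46238503), had 7, 2 and 161 counts in AC tumours, 97, 0 and 0 counts in model tumours, and 2100, 4069 and 4492 counts in colon. It was the only one of the 10 with no read in some tumours, and 3 counts, the limit that a count of 0 allows, correspond to 0.137 CPM in model tumour 2 and 0.156 CPM in model tumour 3. It fell by 6.45 on the log2 scale in AC tumours (SE 1.51, adjusted p 0.00913) and fell by 7.65 in model tumours (SE 1.55, adjusted p 0.00429). Gm9860 on the other strand shares 120 bases (3.12%) of its exons, and of the other members Ezr shares 4 bases (0.12%) with Sytl3. Myo7b, the motor that carries the complex to the tips (ENSMUSG00000024388, chromosome 18, 31959234 to 32036961), had 0.285, 0.166 and 19.8 CPM in AC tumours, 8.24, 0.273 and 0.0519 CPM in model tumours, and 258, 754 and 808 CPM in colon. Colon 1 was the lowest colon library for Myo7b by the widest margin among the 10, at 42.5% of the colon mean. The log2 fold change was -6.42 in AC tumours (SE 1.91, adjusted p 0.023) and -7.61 in model tumours (SE 1.71, adjusted p 0.00681).

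**Figure D2:**
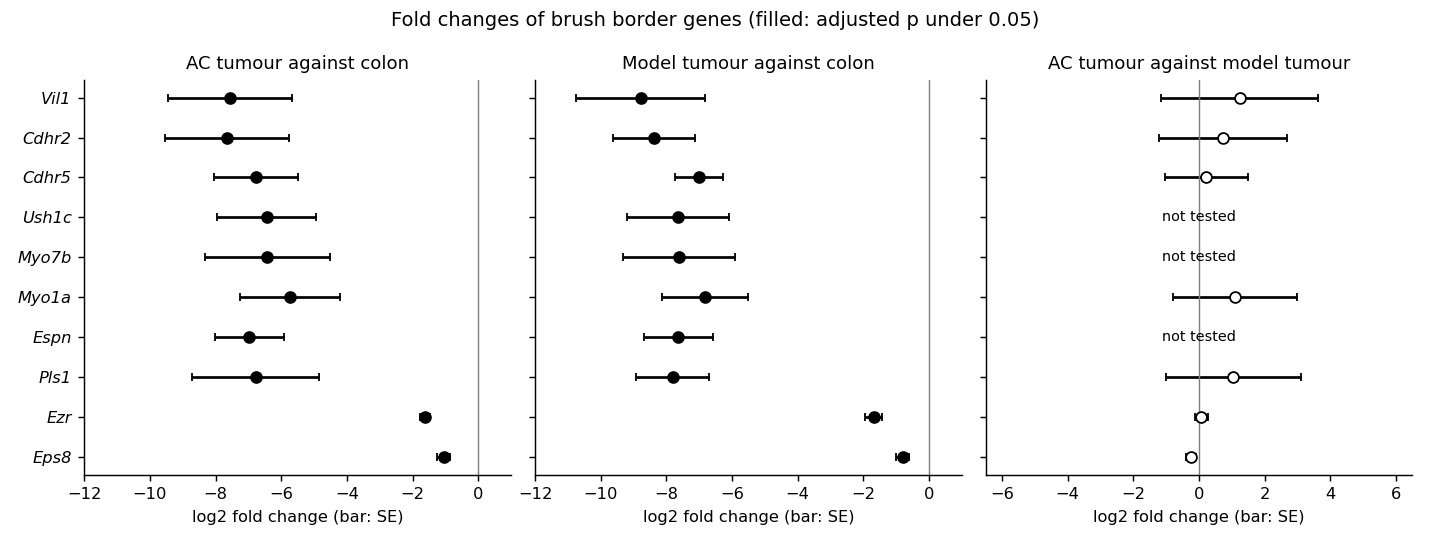
Log2 fold changes from edgeR, with SE derived from its F statistic, for the 10 genes. The panels show AC tumours against colon, model tumours against colon, and AC tumours against model tumours. A filled point has an adjusted p under 0.05, and 3 genes were too low to test in the right panel. Ezr and Eps8 lay between -1.68 and -0.8 against colon, and no point is filled between the tumour groups.

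The size of the fall moved most with AC tumour 3 and model tumour 1, and several calls changed with the colon libraries used. Without AC tumour 3 the log2 fold changes of the 8 lost genes in AC tumours ran from -8.92 for Myo1a to -11.8 for Cdhr2, and without AC tumour 1 or AC tumour 2 from -5.18 to -7.06. Without model tumour 1 those in model tumours ran from -7.72 for Cdhr5 to -13.48 for Vil1, leaving aside Ush1c, which then had no count in any model library. Without model tumour 2 or model tumour 3 those of the 8 ran from -6.28 to -8.19. Without colon 1 edgeR called 4 of the 10 in AC tumours (Cdhr5, Espn, Ezr and Eps8), with log2 fold changes of -6.12 to -8.05 and adjusted p of 0.0501 to 0.1 for Vil1, Cdhr2, Ush1c, Myo7b, Myo1a and Pls1. Without the filter on low counts these 6 were not called either (adjusted p 0.0521 to 0.0937). Of all genes tested in AC tumours, 7007 of 18976 were called lower without colon 1, and 6678 of 33751 without the filter. Without colon 1 Vil1 was not called in model tumours, at -9.05 (SE 2.76, adjusted p 0.0549). Myo7b was not called in AC tumours without colon 2 (adjusted p 0.0524) or colon 3 (adjusted p 0.0587). With the high tumour and colon 1 left out together, an alternative chosen after seeing the data, all 10 were called in both comparisons. That setting called many genes. In AC tumours it called 7385 of 18532 genes lower and 7674 higher, and in model tumours 7285 of 18753 lower and 7660 higher.

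The order of the genes by FPKM, a scale per length, changed between tissues. In colon Vil1 led with 429 ± 111 FPKM (SD, n = 3), followed by Cdhr2 (282 ± 93.3), Ezr (280 ± 37.2), Cdhr5 (252 ± 67.4), Pls1 (250 ± 7.88) and Myo1a (222 ± 65.1), whose ranges overlapped from each to the next. Myo7b (66.7 ± 30.9), Ush1c (51.4 ± 15.2) and Eps8 (44.8 ± 5.54) came next, below the range of Myo1a and overlapping in turn, and Espn was lowest with 17.1 ± 5.28 FPKM. In tumours Ezr led, with 143 ± 1.78 FPKM in AC tumours and 134 ± 39.6 FPKM in model tumours, and Eps8 came next, with 34 ± 5.87 FPKM in AC tumours and 39.2 ± 5.72 FPKM in model tumours. Both stood apart from each other and from the other 8 in every tumour library, and those 8, at means of 0.212 to 6.43 FPKM in AC tumours and 0.121 to 2.98 FPKM in model tumours, overlapped from each to the next.

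AC tumours were set against model tumours, the comparison that bears on the herbs, and no change was called. The filter on low counts left 7 of the 10 genes, without Ush1c, Myo7b and Espn, and edgeR called 0 of them, where 0% of all 17137 genes were called and 13.1% had an unadjusted p under 0.05. Log2 fold changes of the 7 ran from -0.24 for Eps8 (SE 0.154, adjusted p 0.531) to 1.24 for Vil1 (SE 2.4, adjusted p 0.856), with a median of 0.74 against 0.01 over all genes tested. DESeq2, which called 305 genes, also called 0 of the members. The SE of Vil1, Cdhr2, Cdhr5, Myo1a and Pls1 ranged from 1.26 to 2.4, so differences of several fold were not detectable for them, whereas Ezr at 0.06 (SE 0.199, adjusted p 0.911) was measured more closely. With AC tumour 3 and model tumour 1 both left out, Pls1 stood at -1.91 (SE 0.44, adjusted p 0.105), Cdhr2 at -1.45 (SE 0.487, adjusted p 0.202) and Cdhr5 at -1.32 (SE 0.456, adjusted p 0.213), none of them called.

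In AC tumour 3 and model tumour 1 the 8 lost genes stood in proportions to Epcam that were mostly near those of colon, while Ezr and Eps8 lay far above. Ezr was at 579% of the Epcam CPM in AC tumour 3 and 938% in model tumour 1, against 33% to 49.9% in colon, and Eps8 was at 627% and 1159%, against 20.1% to 30.3%. Of the lost genes, Vil1 was at 44.7% in AC tumour 3 and 36.3% in model tumour 1, against 45.3%, 84% and 88.4% in colon. Cdhr2 was at 32.4% and 31.6% in these tumours, against 30.5% to 70.4% in colon. Both genes were thus near colon 1, the colon library with the lowest values. Cdhr5 (31.3% and 35.1%) and Espn (5.51% and 6.37%) lay within their colon ranges of 20.2% to 39.7% and 3.84% to 8.18%. Pls1 was at 49.5% in AC tumour 3 and 37.7% in model tumour 1, against 39.8% to 50.4% in colon. Ush1c and Myo7b passed the highest colon library in AC tumour 3 by little, at 12.5% against 11.4% and 29.2% against 28.7%. Myo1a stood higher relative to Epcam, at 82.8% in AC tumour 3 and 69.4% in model tumour 1, against 23.1% to 49.4% in colon. These are single libraries of different groups, so no test was made. Epithelial markers, like the brush border genes, were lower in all tumours than in colon. Within tumours all but Krt20 were highest in AC tumour 3 and model tumour 1, as the 8 lost genes were. Krt20 in model tumour 1 (239 CPM) lay below AC tumour 1 (271 CPM) and AC tumour 2 (257 CPM). The 9 listed, none at 0 in any library, summed to 291, 273 and 918 CPM in AC tumours, 512, 230 and 196 CPM in model tumours and 20740 to 28850 CPM in colon. In the 4 tumours with little Epcam most of that sum was Krt20, at 178 to 271 CPM, while Epcam, Cldn7 and Esrp1 were each under 1 CPM. The part of the epithelial markers in the results was not tested.

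**Figure D3:**
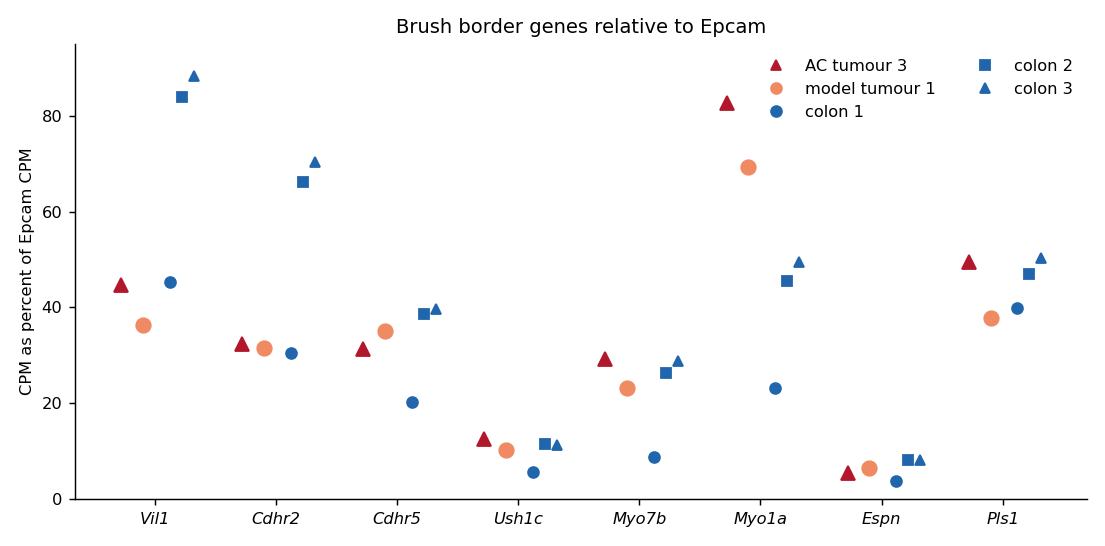
CPM of the 8 lost genes as a percent of Epcam CPM in AC tumour 3, model tumour 1 and the 3 colon libraries, the libraries with at least 100 Epcam counts. Myo1a lay above all colon libraries in both tumours, at 82.8% and 69.4%.

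Relatives were listed for 7 of the 10 members, without Cdhr2, Cdhr5 and Ush1c, and make 6 families. Among the genes listed, the one that supplied most of the family's FPKM differed between tumours and colon in 5 of the 6. These shares are of the summed FPKM, so a share can move without a change in the gene itself. In the class I and VII myosins, Myo1c took the lead, with 63.2% ± 12.7 in AC tumours, 64.9% ± 6.83 in model tumours and 3.4% ± 1.53 in colon, where Myo1a led with 53.7% ± 1.08. Of the summed FPKM of the plastins, Pls1 supplied 3% ± 4.98 in AC tumours, 1.44% ± 1.66 in model tumours and 87.2% ± 1.8 in colon (SD, n = 3 each). Pls3, the plastin of mesenchymal and many other cells, supplied 81.1% ± 2.8 in AC tumours, 80.1% ± 3.82 in model tumours and 9.32% ± 2.52 in colon. By level, Pls3 had 314 to 325 CPM in AC tumours and 260 to 350 CPM in model tumours, against 97.2 to 195 CPM in colon (log2 fold change 1.06 in both, adjusted p 0.00806 in AC tumours and 0.0118 in model tumours).

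Espnl, a relative of espin known from hair cells of the ear, was the espin of the tumours. It had 971, 731 and 690 counts in AC tumours, 706, 749 and 612 counts in model tumours, and 2, 1 and 0 counts in colon. The ratio of its summed scaled counts to colon was 541 in AC tumours (95% exact counting interval 185 to 2620) and 399 in model tumours (136 to 1940). Gsn, gelsolin, the actin-severing protein from which villin's family takes its name, rose to 198 to 256 CPM in AC tumours and 244 to 283 CPM in model tumours, against 50.7 to 56.8 CPM in colon (log2 fold change 2.12 in AC tumours, adjusted p 8.82e-05, and 2.26 in model tumours, adjusted p 2.99e-05). Avil, advillin, known from sensory neurons and tuft cells, varied among tumours, with 31.3, 60.3 and 11.6 CPM in AC tumours and 9.95, 38.9 and 10.9 CPM in model tumours, against 3.27 to 6.34 CPM in colon. Scin, scinderin, fell with Vil1, to 0.942 to 7.83 CPM in AC tumours and 1.73 to 3.09 CPM in model tumours, against 119 to 213 CPM in colon.

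Vill, villin-like, was low in all libraries and not called, at 0.857 to 1.79 CPM in AC tumours, 1.27 to 1.53 CPM in model tumours and 0.0779 to 0.963 CPM in colon.

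In the Eps8 family the leading gene was Eps8 in tumours and Eps8l3 in colon. Eps8l3 supplied 3.58% ± 5.58 of the family's FPKM in AC tumours, 1.98% ± 3.37 in model tumours and 68.9% ± 4.93 in colon, and Eps8 supplied 79% ± 3.1 in AC tumours, 80.8% ± 3.33 in model tumours and 19.3% ± 6.04 in colon. Eps8l1 had at most 1.14 CPM in any library and was not tested. Eps8l3 fell by 7.17 on the log2 scale in AC tumours (adjusted p 0.00902) and fell by 8.01 in model tumours (adjusted p 0.00685), and Eps8l2 fell by 2.7 in AC tumours (adjusted p 0.00105) and fell by 2.48 in model tumours (adjusted p 0.00121). Ezr remained the leading gene of its family in every library, at 62.6% ± 0.154 of the summed FPKM in AC tumours, 59.1% ± 6.76 in model tumours and 94.9% ± 5.41 in colon. Rdx, radixin, rose to 217 to 219 CPM in AC tumours and 227 to 243 CPM in model tumours, against 13.6 to 29.5 CPM in colon (log2 fold change 3.48 in AC tumours, adjusted p 3e-04, and 3.6 in model tumours, adjusted p 0.000218). Msn, moesin, abundant in lymphocytes, was not called, and colon 1 held 200 CPM of it against 37 and 31.4 in the other colon libraries. Lcp1, the plastin of blood cells, was not called either, with 287 CPM in colon 1 against 43.2 and 36.2 CPM.

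**Figure D4:**
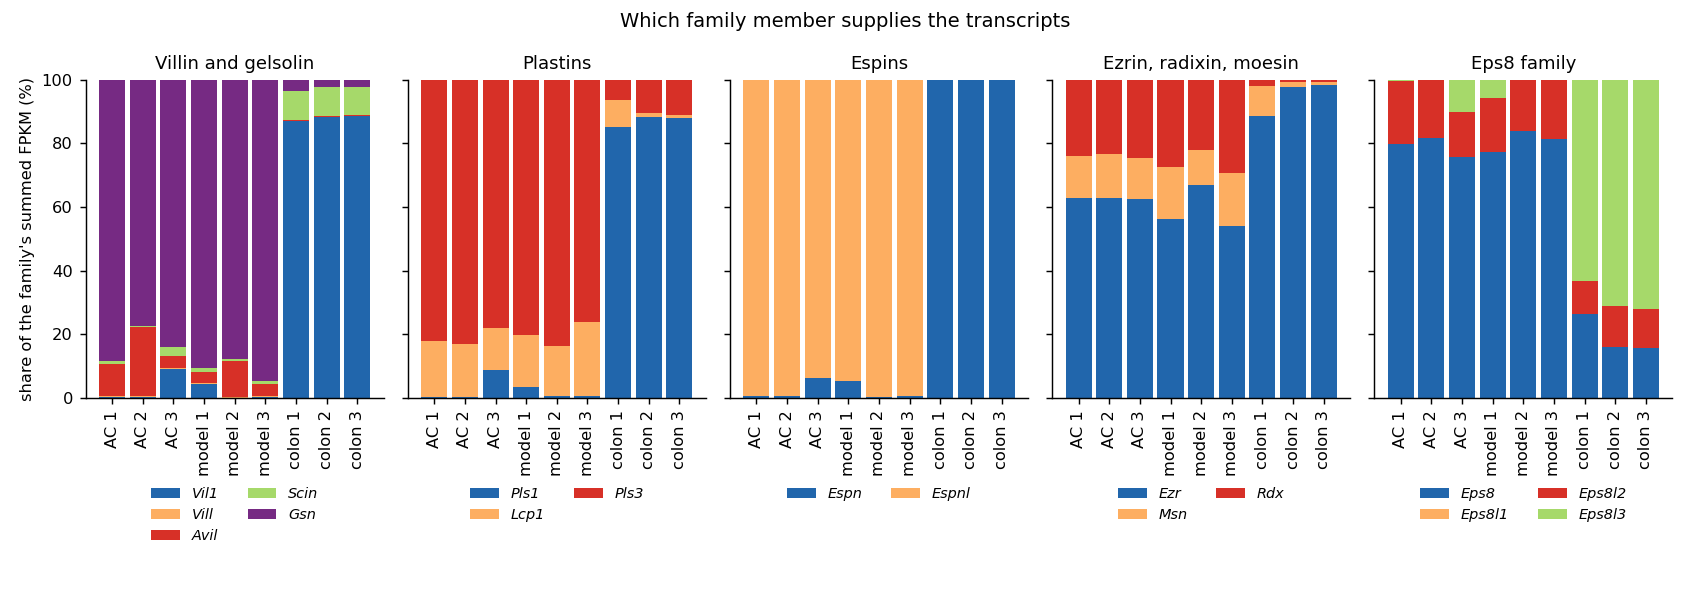
Share of each family's summed FPKM supplied by each of its genes, in percent, in 3 AC tumours, 3 model tumours and 3 colon libraries. Vil1, Pls1, Espn and Eps8l3 lead in colon, and Gsn, Pls3, Espnl and Eps8 lead in every tumour, while Ezr leads in all libraries.

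Of the 16 relatives listed, 15 were tested against colon, and 7 rose, 5 fell and 3 were not called in each tumour group. Of all genes tested, 35.5% were higher and 32.7% lower in AC tumours and 36.8% higher and 32.9% lower in model tumours, so the share that fell was near the background. Those that rose in both were Avil, Gsn, Myo7a, Myo1c, Espnl, Pls3 and Rdx, and Scin, Myo1e, Eps8l2 and Eps8l3 were among those that fell in both. The median log2 fold change was 0.96 in AC tumours and 1.06 in model tumours. None of these directions changed sign under other scaling factors, and Vill was also called higher in model tumours without scaling factors (adjusted p 0.0362). Between the tumour groups 0 of 14 tested relatives were called. The tumour comparisons with colon share the same 3 colon libraries.

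Other genes of the brush border and its terminal web fell with the members. Of 24 listed genes, 22 were tested against colon, and 18 fell, 3 rose and 1 was not called in AC tumours, while 19 fell and 3 rose in model tumours. Of all genes tested, 32.7% were lower and 35.5% higher in AC tumours, and 32.9% lower and 36.8% higher in model tumours. Their median log2 fold change was -4.71 in AC tumours and -5.02 in model tumours. Slc9a3r1, the scaffold also called NHERF1 that binds ezrin, had 29.5 to 30.9 CPM in AC tumours, 17.5 to 21.4 CPM in model tumours and 867 to 1135 CPM in colon. It fell by 5.09 on the log2 scale in AC tumours (adjusted p 2.32e-05) and fell by 5.7 in model tumours (adjusted p 1.53e-05). Tmigd1, an adhesion protein of microvilli, fell by 8.6 in AC tumours and fell by 10.45 in model tumours (adjusted p 4.01e-05), and Anks4b, the partner of harmonin and myosin 7B in the tip complex, named here after its values were seen, fell by 7.37 in AC tumours and fell by 8.63 in model tumours. Dpp4, a brush border peptidase, fell by 4.16 in AC tumours (adjusted p 4.13e-05), and Myo6, a motor that moves toward the base of microvilli, fell by 4.33 in AC tumours (adjusted p 0.000145) and fell by 3.93 in model tumours (adjusted p 4.43e-05). The gene not called in AC tumours was Baiap2l2 (-4.26, adjusted p 0.0502).

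The 3 that rose were Baiap2l1, Slk and Anpep. Baiap2l1, also called IRTKS, which binds EPS8 and bends membrane around new protrusions, had 930 to 1341 CPM in AC tumours and 1227 to 1301 CPM in model tumours, against 292 to 396 CPM in colon (log2 fold change 1.65 in AC tumours, adjusted p 0.000727, and 1.84 in model tumours, adjusted p 0.000114). Slk, a kinase of ezrin, rose by 0.78 in AC tumours (adjusted p 0.00472) and by 0.89 in model tumours (adjusted p 0.00288). Anpep, aminopeptidase N, which is also found on myeloid and stromal cells, rose by 2.2 in AC tumours (adjusted p 0.00025) and by 2.76 in model tumours (adjusted p 5.94e-05). The 5 macrophage markers, none at 0, were also higher in tumours than in colon. They summed to 562 to 931 CPM in AC tumours, 477 to 686 CPM in model tumours and 32.4 to 38.3 CPM in colon. The sum of the 5 fibroblast markers, none at 0, was higher in tumours as well. It was 1222 to 1664 CPM in AC tumours, 1732 to 2169 CPM in model tumours and 148 to 223 CPM in colon. Col1a2 supplied 827 to 915 CPM of the sum in AC tumours. All 5 were called higher in model tumours, where 36.8% of all genes tested were, but only 4 in AC tumours, where 35.5% were. Dcn was the one not called there (log2 fold change 1.11, SE 0.768, adjusted p 0.239). Its CPM in AC tumours were 28.8, 78.3 and 203, against 31.1 to 80.5 in colon. The part of the macrophage or fibroblast markers in the rises, that of Pls3 included, was not tested. Without scaling factors Stk26 was no longer called in either group (adjusted p 0.0777 in AC tumours and 0.0911 in model tumours), nor Tpm1 in model tumours (0.264). Between the tumour groups 0 of 17 tested genes were called by edgeR, while DESeq2 called Slc9a3r1 higher (0.62, adjusted p 0.00205) and Anpep lower (-0.54, adjusted p 0.0141) in AC tumours, as edgeR did without AC tumour 3.

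The genes whose levels ran most like those of the brush border set were sought next. Over the 9 libraries, among 14276 genes compared, the highest Pearson correlations with the mean log2(CPM + 0.5) of the members were those of Acer1 and Vipr1 (0.9997 each), St14 (0.9996), Misp and Papss2 (0.9994 each). Acer1 encodes an alkaline ceramidase, Vipr1 the receptor of vasoactive intestinal peptide, St14 the membrane protease matriptase, Misp an actin-bundling protein and Papss2 an enzyme that makes the sulphate donor used for mucins. Over the 6 tumours the closest were Tmem139, Papss2, Gsdmcl2, Map3k21 and Ly6g6d, at 0.9985 to 0.9994, of which Ly6g6d had at most 0.105 CPM in any tumour. Among the members, 8 had correlations of 0.921 to 0.995 with their own mean over the tumours, against 0.41 for Eps8 and -0.23 for Ezr. These values describe few points, which share their libraries and are drawn apart by tissue and, within tumours, by AC tumour 3 and model tumour 1.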

How the data were processed

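RNA was sequenced from 3 AC tumours, 3 model tumours and 3 colon samples. The deposited gene counts are raw reads per gene, made by the authors with featureCounts 1.5.0-p3, per the submitters' processing notes; the aligner and strand setting are not given there or in the labels. The authors' FPKM divide the deposited counts by gene length and library total. The notes name mm9, but for 96.8% of 22279 genes the lengths implied by FPKM lay within 1% of GENCODE M21 exons (GRCm38), so M21 names and coordinates were used. M21 named 54409 of 54446 Ensembl IDs, and the other 1952 features carry the authors' own IDs. Every count column was used.

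Totals were 15690038 to 23476056 counts per library, and 3 counts, the floor for an undetected gene, equal 0.112 to 0.241 TMM-scaled CPM. The Espnl interval covers counting error only. Each comparison used its own 6 libraries in edgeR 4.0.16 (R 4.3.3): filterByExpr, TMM factors and the quasi-likelihood test with no covariate, Benjamini-Hochberg adjusted p under 0.05 over all genes tested. The SE given with edgeR values is the absolute log2 fold change divided by the square root of the test's F statistic, as that test reports no SE. The fits were tested on simulated data with the same spread set for all genes. That test does not cover genes as uneven among tumours as Vil1. Alternatives were other scaling factors, DESeq2 1.42.0, no filter on low counts, 1 fit of all libraries, a replicate block, limma 3.58.1 on log2 FPKM, and libraries left out. No pair of libraries within a group matched within sampling noise (9 pairs compared).

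The 10 genes and all gene lists were chosen with earlier results of these data known. Beyond the 10, genes named with values were the 3 with the smallest adjusted p in each direction per list and comparison, the relatives of Ezr, Pls1, Vil1, Espn and Eps8, and the 5 genes most correlated with the members, unless stated. A result that this rule names is not reported here. Levels and sums were computed in Python 3.11.15 with pandas 2.3.3. Promoters are RefSeq's.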

Additional observations from a re-analysis of the deposited data

How the results depend on the processing

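All 10 brush border genes kept their direction against colon under every setting tried, while the number called in AC tumours moved from 10 to 4 without the filter on low counts. Leaving out 1 library at a time gave 4 to 10 called in AC tumours and 9 to 10 in model tumours. Over all genes the calls then ranged from 10899 to 14360 in AC tumours and from 11677 to 15339 in model tumours. Without the filter, 6678 of 33751 genes were called lower and 7141 higher in AC tumours. Against model tumours, AC tumours had 0 genes called by edgeR, 2253 at an unadjusted p under 0.05, 305 by DESeq2, 105 without the filter, 94 with model tumour 1 and AC tumour 3 both left out, and 0 to 569 with 1 library left out. Members were 0 under all of these. Directions of uncalled members between the tumour groups turned in 19 cases. Without AC tumour 3 the log2 values were -2.89 for Vil1, -3.41 for Cdhr2, -2.03 for Cdhr5, -2.08 for Myo1a and -3.7 for Pls1. With model tumour 1 also out they were -1.45 for Cdhr2, -1.32 for Cdhr5, -1.91 for Pls1 and -0.02 for Ezr. With limma on FPKM they were -0.31 for Cdhr2, -0.45 and -0.2 for Cdhr5 and -0.45 for Pls1. Cdhr5 was at -0.18 without model tumour 2, and Ezr at -0.03 without model tumour 1 and -0.09 without model tumour 3. Over single libraries left out, the highest values were 5.9 for Vil1, 2.7 for Cdhr2, 0.92 for Cdhr5, 3.47 for Myo1a and 2.83 for Pls1, all without model tumour 1, and 0.35 for Ezr without model tumour 2. The cause was not tested. With the replicate number as a block, 10 members were called in each tumour group and 11303 genes in AC tumours and 11774 in model tumours, and between the tumour groups Cdhr2 was at -0.97, Cdhr5 at -0.5 and Pls1 at -1.05. Deviations from the group means correlated at -0.528 to 0.435 between same-numbered libraries, the highest being AC tumour 2 with model tumour 2. AC tumour 3 and model tumour 1, of unlike number, reached 0.654. With 3 libraries per group these values cannot settle whether the numbers pair samples, and the labels give no pairing. Depth limits Ush1c, Myo7b and Espn, which had under 10 counts in 4 tumours.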

Other observations

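Some epithelial genes stayed measurable in the 4 tumours with next to no Epcam. Krt20, a keratin of differentiated gut epithelium, had 271, 257 and 390 CPM in AC tumours, 239, 215 and 178 CPM in model tumours, and 4720, 5666 and 5906 CPM in colon. Those tumours held 5 to 20 Epcam counts and 3429 to 5692 Krt20 counts. Cdh17, a cadherin of gut epithelium, had 9.8, 10.4 and 38.4 CPM in AC tumours, 28.4, 12.2 and 7.43 CPM in model tumours, and 2435 to 2537 CPM in colon. Both genes were thus present in each tumour library, at levels far below colon.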
